A study of Mus musculus with 12 samples.

Results

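The genes described here are 10 genes known to respond to androgen, chosen by name: Fkbp5, Sgk1, Zbtb16, Acsl3, Pmepa1, Ndrg1, Abcc4, Tsc22d3, Ell2 and Steap4. All 10 were among the 23284 genes of the table and all 10 passed the filter on low values, which 15096 genes passed. They were measured in prostate tissue of 4-month-old mice. Of the libraries, 6 came from wild-type animals. The other 6, here named null libraries, came from animals with a null allele on both copies of the targeted gene. Both genotypes were on a hybrid 129/SvImJ and C57Bl/6J background, and neither was treated. The labels do not say which prostate lobes were taken, whether animals were pooled or whether each library is another animal. P-values therefore speak of the spread among these libraries, some of which may be technical. The comparison addresses how loss of the targeted gene changes expression in the adult prostate. The labels record no androgen treatment for any sample and give no androgen levels. The name of the group therefore rests on background knowledge of these genes and could not be checked here.

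The androgen receptor is a nuclear receptor that, once bound by testosterone or dihydrotestosterone, enters the nucleus, binds DNA as a dimer and changes the transcription of nearby genes. Prostate epithelium depends on it for its secretory function, and castration shrinks the gland. The glucocorticoid receptor recognises much the same DNA palindrome, and Fkbp5, Sgk1, Zbtb16 and Tsc22d3 are known as targets of both receptors. Ndrg1 is also known for its induction by low oxygen, and Pmepa1 for its induction by TGF-beta.

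Log2 values ran from 1.07 to 21.6 over the table, and genes that prostate does not use stood near a floor, with a median of 2.85 over 1123 olfactory receptor genes. The lowest value of any of the 10 genes was 7.21, well above the 95th percentile of those receptor genes, 3.51. With no counts in the table, library depth is unknown. Whether the values correct for gene length was not given in the sources used here. Levels are therefore compared between libraries, and those of different genes only loosely. Libraries did not scatter evenly within a genotype. Wild-type libraries 1 to 3 and 4 to 6 formed 2 sets, while in null the sets were libraries 1, 2 and 5 against libraries 3, 4 and 6. Over 3633 genes whose mean was 10 or more, null library 5 lay a median of 0.030 from an equal mix of null libraries 1 and 2, which lay 0.11 from each other. Null library 6 lay 0.029 from an equal mix of null libraries 3 and 4, which lay 0.085 apart. In wild type, library 3 lay 0.036 from the mix of 1 and 2, and library 5 lay 0.034 from the mix of 4 and 6. Libraries of a set may therefore share material, so calls over all 12 libraries were also examined over the 4 set means, and over the 4 libraries per genotype that remain without the library nearest to a mix in each set. All 8 prostate luminal markers were present in wild type and all 8 were lower in null libraries by limma over 12 libraries, 5 of them also over set means. Of all tested genes, 25.1% were lower over 12 libraries and 6.96% over set means. Differences of the 8 luminal markers ran from -15.0 to -0.30, with a median of -0.56. Sbp fell the most, from 19.12 to 4.07, followed by Msmb (-5.62) and Pbsn (-2.15). Their summed level, on the log2 scale, was 20.57 to 20.77 in wild type and 19.19 to 19.62 in null libraries. Tgm4, a transglutaminase of prostatic fluid, had the highest mean of the 8, with wild-type libraries at 19.57 ± 0.098 (SD, n = 6) and null libraries at 19.17 ± 0.21 (SD, n = 6). Its genotypes overlapped, and with set means its adjusted p by limma was 0.285.

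Over 12 libraries 7 of the 10 genes changed by limma (adjusted p under 0.05 over all genes tested), or 70%, beside 53.1% of all tested genes. Sgk1, Zbtb16, Acsl3, Tsc22d3 and Ell2 rose, 5 of 10 where 28% of all genes rose, and Fkbp5 and Steap4 fell, 2 of 10 where 25.1% of all genes fell. Pmepa1, Ndrg1 and Abcc4 were not called. Over set means 4 of 10 passed, 3 higher and 1 lower, with 14.5% of all genes passing, 7.58% higher and 6.96% lower. Over 4 libraries per genotype the same number passed, with 37.7% of all genes passing. In both fits these were Sgk1, Zbtb16, Acsl3 and Fkbp5. The same 4 were the members whose values did not overlap between genotypes, which held for 32.6% of all tested genes. With upper quartile scaling, 3 members rose and 2 fell, and over all genes 3367 rose and 4869 fell, against 4224 and 3789 without it. The median difference of the 10 genes was 0.19, beside 0.012 over all tested genes. Differences of at least 2-fold that passed the test were found for Sgk1 and Zbtb16, both higher, as were 2.99% of all tested genes. In bulk tissue, fewer cells of a type and less RNA per cell cannot be told apart.

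**Figure D1:**
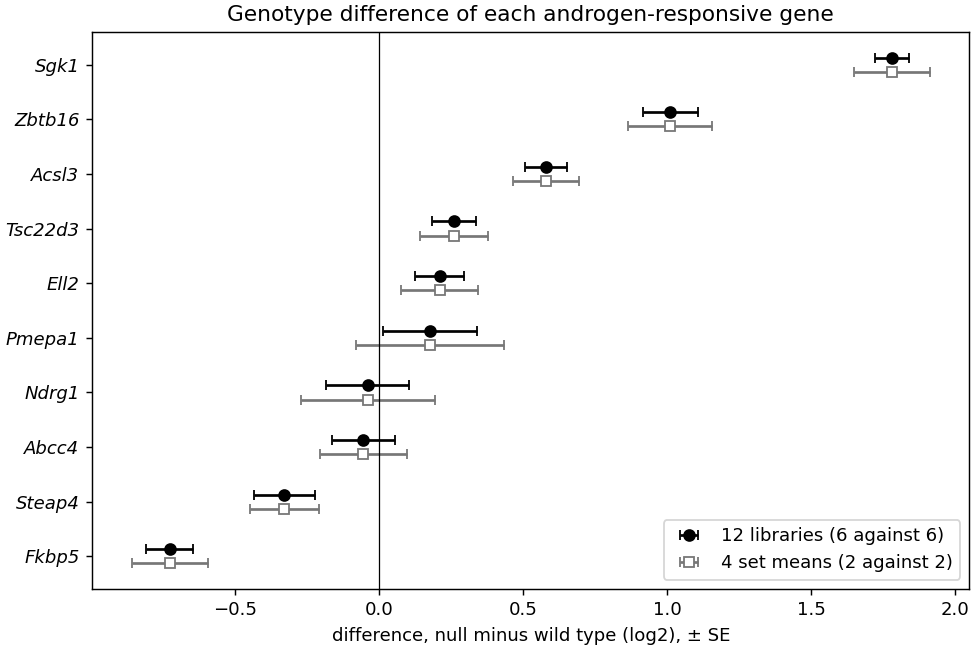
The difference of each gene between genotypes, null minus wild type, is plotted in log2 units with its standard error, from 12 libraries (filled circles) and from the 4 set means (open squares). Sgk1 at 1.78, Zbtb16 at 1.01, Acsl3 at 0.58 and Fkbp5 at -0.73 lie clear of 0 in both fits, and the other 6 genes lie nearer to it.

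Sgk1 encodes a serum- and glucocorticoid-induced kinase that keeps sodium channels at the surface of epithelial cells by acting on the ubiquitin ligase Nedd4l. In wild-type libraries Sgk1 stood at 12.81 at the lowest, a median of 12.96 and 13.11 at the highest, and in null libraries at 14.63, 14.74 and 14.80. Every null library was far above every wild-type library, and the spread within null libraries was small. Sgk1 rose by 1.78 (SE 0.059), a 3.44-fold change, from 12.95 ± 0.12 (SD, n = 6) to 14.73 ± 0.068 (SD, n = 6). The adjusted p of limma was 1.34e-11 over 12 libraries, 0.00254 over set means and 3.08e-07 over 4 libraries per genotype. The difference exceeded in size that of 97.7% of all tested genes. Both null sets stood at the same level, 1.79 and 1.77 above the wild-type mean. Nedd4l itself rose by 2.32 (SE 0.051), from 9.01 to 11.33, with an adjusted p of 1.91e-13 by limma and 0.000540 over set means. Its relative Sgk3 (0.17, adjusted p = 0.0503 by limma) and the sodium channel subunit genes Scnn1a (0.14, adjusted p = 0.106), Scnn1b (0.18, adjusted p = 0.443) and Scnn1g (0.43, adjusted p = 0.0571) did not pass, and Sgk2 was below the filter.

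Promoter windows of RefSeq, build GRCm38.p6, were matched for 7 of the 10 genes, and those of 3 of the 4 genes that changed in every fit are shown to let the letters before their starts be compared. Each window holds the 250 bases before a transcription start. Sgk1 has 6 annotated starts, and the fifth window is printed, the only one of the 6 with the whole palindrome given next. Which of these starts prostate uses was not tested. Capitals mark matches to the 6 bases AGAACA or TGTTCT, the arms of the palindrome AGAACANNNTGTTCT that androgen and glucocorticoid receptors are known to bind, searched on both strands.
Sgk1, chr10:21993640-21993889, plus strand: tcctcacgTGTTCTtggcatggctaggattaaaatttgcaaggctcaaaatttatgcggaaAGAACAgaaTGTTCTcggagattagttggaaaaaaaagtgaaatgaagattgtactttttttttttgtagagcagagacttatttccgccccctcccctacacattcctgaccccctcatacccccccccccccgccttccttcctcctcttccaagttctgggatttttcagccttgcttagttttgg
Fkbp5, chr17:28486150-28486399, minus strand: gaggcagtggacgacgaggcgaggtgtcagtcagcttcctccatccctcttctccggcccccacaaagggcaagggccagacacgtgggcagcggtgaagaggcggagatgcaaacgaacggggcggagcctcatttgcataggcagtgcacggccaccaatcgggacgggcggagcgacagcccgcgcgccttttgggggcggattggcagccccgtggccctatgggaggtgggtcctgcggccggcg
Acsl3, chr1:78657575-78657824, plus strand: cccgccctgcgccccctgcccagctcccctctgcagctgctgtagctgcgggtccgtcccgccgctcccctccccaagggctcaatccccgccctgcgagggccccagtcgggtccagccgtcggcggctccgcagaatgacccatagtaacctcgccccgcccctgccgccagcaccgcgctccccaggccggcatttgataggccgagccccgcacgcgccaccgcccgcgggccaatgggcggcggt
The Sgk1 window holds the whole palindrome with no mismatch, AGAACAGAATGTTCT, at chr10:21993701-21993715 and 189 bases before that start, and 1 further arm 242 bases before it. Of 32851 windows of the same length over all genes, 3 hold the palindrome, or 0.00913%, and 16.1% hold at least 1 arm. Among the 15 windows of the members, 1 holds the palindrome, the fifth of Sgk1. An arm is held by 5: 3 of the 6 windows of Sgk1, and 1 each of Abcc4 and Tsc22d3. The windows of Fkbp5, Acsl3, Ell2 and Steap4 hold none in these letters. A match is a description of sequence. Receptor binding was not measured here, and known receptor sites of such genes often lie outside windows of this size.

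Zbtb16 encodes PLZF, a zinc finger transcriptional repressor. It stood at 10.06, a median of 10.29 and 10.54 in wild-type libraries and at 10.97, 11.36 and 11.48 in null libraries. All null libraries lay above all wild-type libraries, and null library 2 was the lowest of them. Zbtb16 rose by 1.01 (SE 0.095), a 2.01-fold change, with an adjusted p of 8.87e-07 by limma over 12 libraries, 0.0129 over set means and 0.000178 over 4 libraries per genotype. The null sets stood 0.87 and 1.15 above the wild-type mean. Wild-type libraries 4 to 6 stood 0.28 above libraries 1 to 3, a smaller gap than that between genotypes. Its relatives moved less: Zbtb7a rose by 0.22 (adjusted p = 0.00455 by limma), the gene of the ubiquitin ligase scaffold Cul3 rose by 0.28 (adjusted p = 0.000605 by limma) and Zbtb32 fell by 0.78 (adjusted p = 0.000106 by limma), but these missed the threshold over set means, and Zbtb7a also over 4 libraries per genotype (adjusted p = 0.0736).

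Acsl3 encodes an acyl-CoA synthetase that activates long-chain fatty acids and supports lipid droplet formation. It stood at 11.57, a median of 11.77 and 11.88 in wild-type libraries and at 12.13, 12.33 and 12.46 in null libraries, with no overlap. Acsl3 rose by 0.58 (SE 0.073), a 1.49-fold change, with an adjusted p of 1.22e-05 by limma over 12 libraries, 0.0274 over set means and 0.00169 over 4 libraries per genotype. In GENCODE M21, 244 of 4357 exonic bases of Acsl3 are shared with Utp14b on the same strand. The way reads were shared out was not given in the sources used here. Utp14b rose by 0.40 (adjusted p = 0.000252 by limma) at a lower value, from 7.77 to 8.17. Of the other synthetases, Acsl5 fell by 0.33 (adjusted p = 0.000221 by limma), Acsl6 rose by 0.61 from 4.34 (adjusted p = 0.0171 by limma), and Acsl1 (0.12) and Acsl4 (0.058) were not called. Over set means the calls of Acsl5 (adjusted p = 0.0962) and Acsl6 (adjusted p = 0.202) ended, and that of Acsl6 also over 4 libraries per genotype (adjusted p = 0.112).

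Fkbp5 encodes FKBP51, a cochaperone of HSP90 that sits in steroid receptor complexes and lowers their affinity for hormone. It stood at 11.94, a median of 12.09 and 12.24 in wild-type libraries and at 11.24, 11.31 and 11.67 in null libraries. No null library reached the lowest wild-type library, and null library 4 came nearest. Fkbp5 fell by 0.73 (SE 0.082), so that wild type was 1.65-fold higher, with an adjusted p of 4.08e-06 by limma over 12 libraries, 0.0228 over set means and 0.000635 over 4 libraries per genotype. Wild-type libraries 4 to 6 stood 0.26 above libraries 1 to 3, and the null sets stood at -0.81 and -0.65 against the wild-type mean. Thus Fkbp5 differed in direction from Sgk1 and Zbtb16, which are known to share both receptors with it. Tsc22d3, also known as a target of both, rose over 12 libraries, but its call ended over set means (adjusted p = 0.191 by limma). All 8 listed relatives of the FKBP family were called, 2 higher and 6 lower, beside 53.1% of all tested genes. Over set means 1 was higher and 1 lower, beside 14.5% of all tested genes. Fkbp2, an FKBP of the endoplasmic reticulum, rose by 1.20 (adjusted p = 1.13e-09 by limma), and Fkbp9 fell by 0.59 (adjusted p = 2.51e-06 by limma), both also over set means. Fkbp11 fell by 0.66 and Fkbp1a by 0.27, neither of which passed over set means. Fkbp4, the FKBP52 cochaperone that raises hormone affinity, rose by 0.46 (adjusted p = 0.000154 by limma, and 0.0841 over set means).

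**Figure D2:**
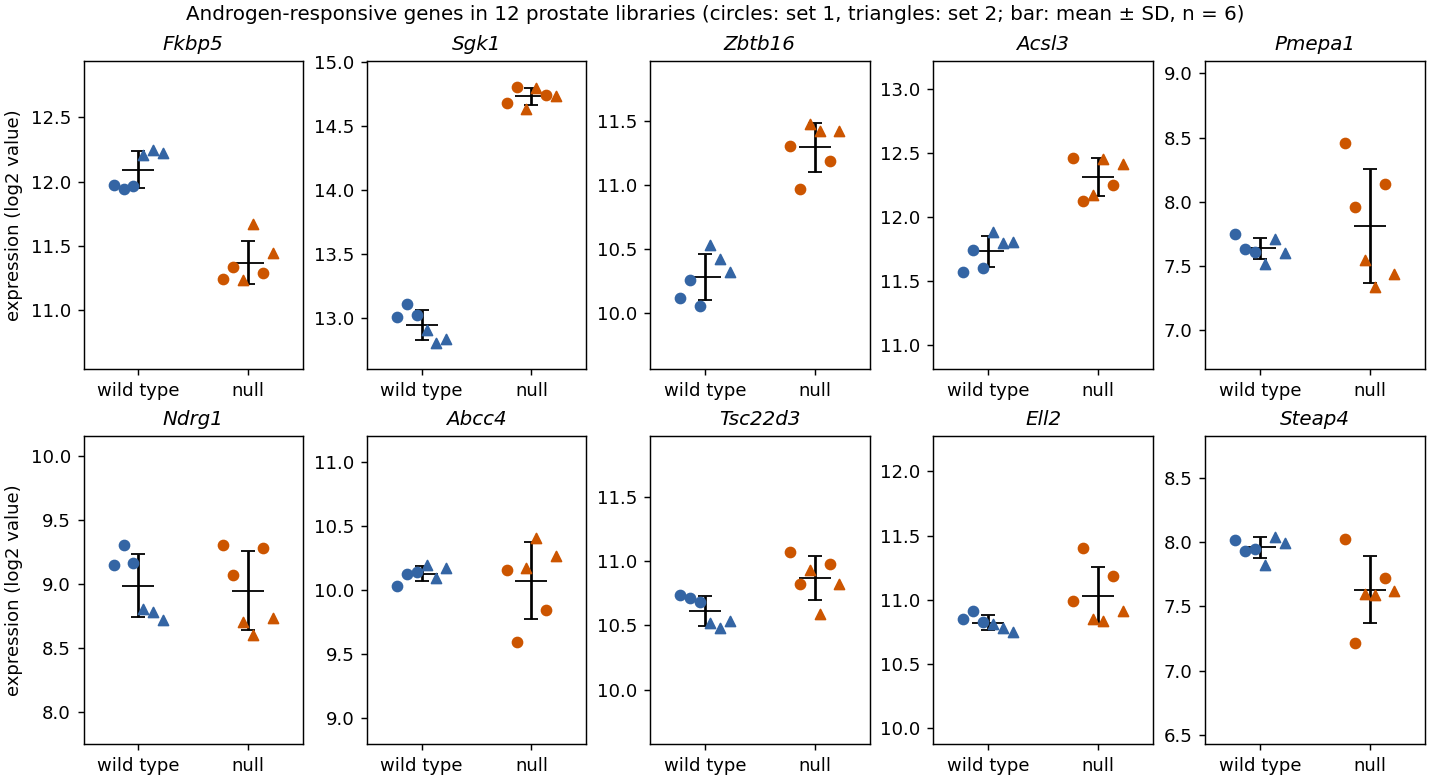
Log2 values of the 10 genes are plotted for each library, wild type in blue and null in orange, with circles and triangles for the 2 sets of 3 libraries in each genotype and a bar for the mean ± SD (n = 6). Every panel spans the same range of log2 units. Genotypes are apart for Fkbp5, Sgk1, Zbtb16 and Acsl3. The circles and triangles separate in both genotypes for Ndrg1, Zbtb16 and Ell2. They separate in null libraries only for Pmepa1 and Abcc4, and in wild type only for Fkbp5, Sgk1, Acsl3 and Tsc22d3. For Steap4 they overlap in both genotypes.

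Tsc22d3, Ell2 and Steap4 differed by less, and their calls rested on all 12 libraries being counted as separate. Tsc22d3 encodes GILZ, a leucine zipper protein that carries anti-inflammatory actions of glucocorticoids. It stood at 10.48, a median of 10.61 and 10.74 in wild type and at 10.59, 10.88 and 11.08 in null libraries, and null library 4 lay within the wild-type range. Tsc22d3 rose by 0.26 (SE 0.076, adjusted p = 0.0101 by limma), but the call ended over set means (adjusted p = 0.191), over 4 libraries per genotype (adjusted p = 0.106) and with quantile normalization (adjusted p = 0.0984). It also ended without wild-type libraries 4 to 6 (difference 0.16, adjusted p = 0.173) and without null libraries 1, 2 and 5 (difference 0.17, adjusted p = 0.0982).

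Ell2 encodes an elongation factor for RNA polymerase II, known for raising secretory-protein output in plasma cells. In wild type it stood at 10.74, a median of 10.82 and 10.91, and in null libraries at 10.84, 10.95 and 11.41, where null library 2 was the highest. The genotypes overlapped. Ell2 rose by 0.21 (SE 0.085, adjusted p = 0.0490 by limma), just inside the threshold, and the call ended in 19 of 26 alternatives. Among these were each of the 6 wild-type libraries and null libraries 1, 2 and 5 left out in turn, with adjusted p from 0.0510 to 0.105. The null libraries were not alike: libraries 1, 2 and 5 stood 0.37 above the wild-type mean and libraries 3, 4 and 6 only 0.047 above it. Of its 8 listed partners and relatives, 5 rose and 1 fell by limma, or 75%, beside 53.1% of all tested genes. Among them Ccnt1, a cyclin of the elongation kinase, rose by 0.64, the scaffolds Aff4 and Aff1 rose by 0.42 and 0.40, and the kinase gene Cdk9 fell by 0.32. Only Ccnt1 also passed over set means (adjusted p = 0.0343).

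Steap4 encodes a metalloreductase that reduces iron and copper at membranes. It stood at 7.82, a median of 7.97 and 8.04 in wild type. In null libraries it stood at 7.21, 7.61 and 8.03, with null library 1 at the wild-type level and null library 2 the lowest. Steap4 fell by 0.33 (SE 0.105, adjusted p = 0.0166 by limma), but missed the threshold over set means (adjusted p = 0.122), over 4 libraries per genotype (adjusted p = 0.109) or by an exact rank-sum test (adjusted p = 0.0761). Of the other STEAP genes, Steap1 fell by 1.40 (SE 0.150, adjusted p = 2.60e-06 by limma, and 0.00582 over set means), from 7.69 ± 0.10 (SD, n = 6) to 6.29 ± 0.39 (SD, n = 6). Steap2 rose by 0.44 (adjusted p = 0.00749 by limma, and 0.0440 over set means), but its call ended over 4 libraries per genotype (adjusted p = 0.0996), and Steap3 was not called. Over 12 libraries 1 of 3 relatives was higher and 1 lower, near the shares of all tested genes, 28% higher and 25.1% lower.

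Pmepa1, Ndrg1 and Abcc4 were not called over 12 libraries. Pmepa1 encodes a membrane adaptor that binds NEDD4 ligases and damps TGF-beta signalling. It stood at 7.51, a median of 7.62 and 7.75 in wild type and at 7.33, 7.75 and 8.46 in null libraries. Its difference was 0.18 (95% interval -0.18 to 0.53, adjusted p = 0.388 by limma). It was 0.047 without null library 1 and 0.27 without null library 4, uncalled in both. Null libraries 1, 2 and 5 stood at 8.46, 7.96 and 8.14, above every wild-type library, and null libraries 3, 4 and 6 at 7.55, 7.33 and 7.43, within or below the wild-type range. The sign of the difference therefore turned with the set: it was 0.55 (adjusted p = 0.00102) without null libraries 3, 4 and 6, and -0.20 (adjusted p = 0.0621) without null libraries 1, 2 and 5. Both p-values count the 3 null libraries of a set as separate, though these may share material, and the sets were found from these same values.

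Ndrg1 encodes a stress-response protein of epithelia. It stood at 8.72, a median of 8.98 and 9.30 in wild type and at 8.60, 8.90 and 9.30 in null libraries, nearly the same range. Its difference was -0.040 (95% interval -0.35 to 0.27, adjusted p = 0.835 by limma). In both genotypes the sets were apart. Wild-type libraries 1 to 3 averaged 9.21 and libraries 4 to 6 averaged 8.77, while null libraries 1, 2 and 5 averaged 9.22 and null libraries 3, 4 and 6 averaged 8.68. GENCODE M21 has 2 genes on the opposite strand that share exonic bases with Ndrg1, and 1 such gene for Ell2. Use of strand in counting was not given in the sources used here. Of its relatives, Ndrg3 rose by 0.19 (adjusted p = 0.00513 by limma), a call that ended over set means (adjusted p = 0.254) and over 4 libraries per genotype (adjusted p = 0.0610), and Ndrg2 and Ndrg4 were not called.

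Abcc4 encodes MRP4, an efflux pump for cyclic nucleotides and prostaglandins. It stood at 10.03, a median of 10.14 and 10.19 in wild type, a narrow range, and at 9.60, 10.17 and 10.40 in null libraries. Its difference was -0.055 (95% interval -0.29 to 0.18, adjusted p = 0.702 by limma). Null libraries 2 and 5 lay below every wild-type library and null libraries 4 and 6 above every one. Without null libraries 3, 4 and 6 the difference was -0.26 (adjusted p = 0.0379 by limma), and without null libraries 1, 2 and 5 it was 0.15 (adjusted p = 0.0349). These p-values too count the 3 null libraries of a set as separate, though they may share material. All 5 tested relatives of the ABCC family were called, 3 higher and 2 lower, beside 53.1% of all tested genes, and 1 of the 5 passed over set means, beside 14.5% of all tested genes. Abcc5, also a cyclic nucleotide pump, rose by 1.31 (adjusted p = 4.71e-09 by limma, and 0.00408 over set means), Abcc1 rose by 0.45 and Abcc10 by 0.30, and Abcc2 fell by 0.65, the last 3 not passing over set means.

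**Figure D3:**
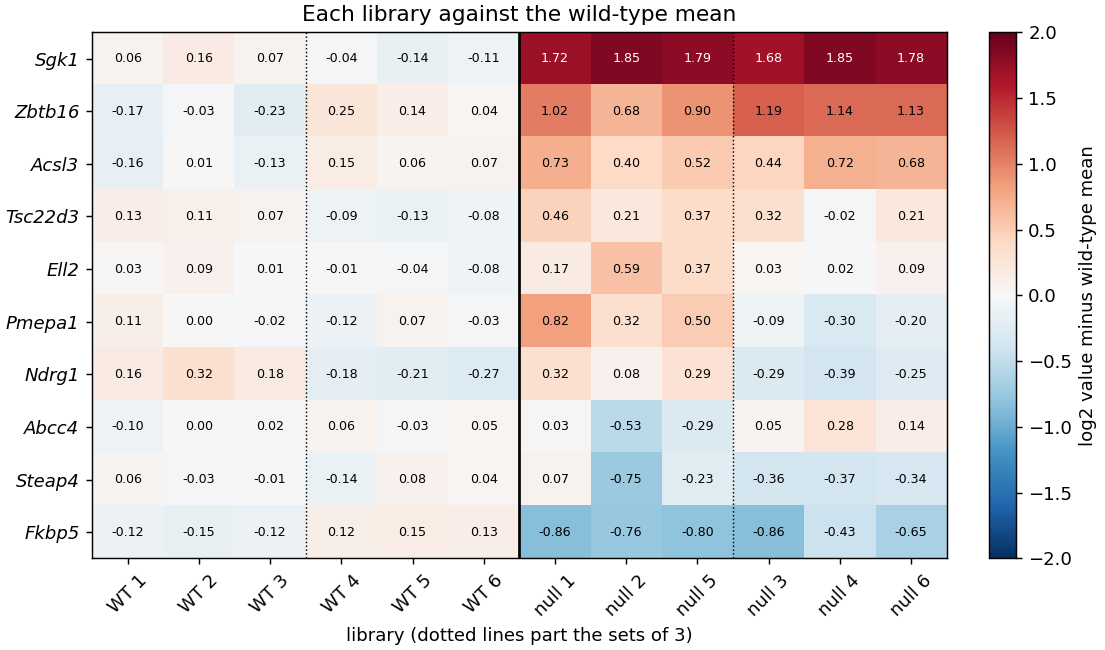
Each cell gives the log2 value of a gene in 1 library minus its mean over the 6 wild-type libraries, with red for higher and blue for lower. Libraries are columns, ordered by genotype and set. Sgk1 lies between 1.68 and 1.85 in all null libraries, while Pmepa1 runs from 0.82 to -0.30 and Abcc4 from -0.53 to 0.28 among them.

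Within genotypes the 10 genes did not move as one. Pearson correlations were computed over 12 libraries on values centred within genotype, for 45 pairs, as a description. The points share their sets, so each rests on few separate samples. Tsc22d3 and Ndrg1 varied together (r = 0.82), as did Pmepa1 and Ndrg1 (r = 0.78). Fkbp5 and Tsc22d3 varied in opposition (r = -0.94), as did Abcc4 and Ell2 (r = -0.94). The genes outside the group whose centred values were most like those of a member were, for Ell2, Dnajb9 (r = 0.98) and Derl2 (r = 0.98), both genes of protein quality control in the endoplasmic reticulum. For Pmepa1 they were the fibrillar collagen gene Col5a3 (r = 0.98) and Des (r = 0.98), the desmin of muscle, and for Ndrg1 the muscle kinase gene Speg (r = 0.99) and 6720456H20Rik (r = 0.98). For Fkbp5 they were the integrin gene Itga3 (r = 0.98) and Prr15 (r = 0.98), and for Zbtb16 Slfn9 (r = 0.97) and Irs1 (r = 0.97). For Abcc4 they were Dgke (r = 0.97) and Tbl1x (r = 0.97), for Tsc22d3 Fstl5 (r = 0.98) and Dgkb (r = 0.97), for Sgk1 Sar1a (r = 0.95) and Serp1 (r = 0.93), for Acsl3 Ppm1e (r = 0.91) and Sptlc2 (r = 0.91), and for Steap4 Col14a1 (r = 0.94) and 9530002B09Rik (r = 0.94).

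Levels of some other cell types moved with the sets too. The summed level of 6 smooth muscle markers, on the log2 scale, was 16.30 to 16.57 in null libraries 1, 2 and 5 and 15.78 to 16.06 in null libraries 3, 4 and 6, the same order as for Pmepa1 and Ndrg1. In wild type, libraries 1 to 3 had 16.23 to 16.31 and libraries 4 to 6 had 16.11 to 16.18. Limma called 0 of the 6 between genotypes over 12 libraries and over set means, where 0 reached an unadjusted p under 0.05. The summed level of 7 seminal vesicle markers was 6.65 to 11.76 in wild type and 16.72 to 20.35 in null libraries. All 7 were called higher, 4 of them also over set means. Their sums parted by set in both genotypes. Wild-type libraries 1 to 3 had 11.69 to 11.76 and libraries 4 to 6 had 6.65 to 6.83. Null libraries 1, 2 and 5 had 18.36 to 20.35, and null libraries 3, 4 and 6 had 16.72 to 17.89. The 9 adipocyte markers summed to 8.11 to 9.45 in wild type and 7.87 to 11.58 in null libraries, with 5 called higher, 3 over set means and 0 over 4 libraries per genotype by limma. Their null sums did not follow the sets: libraries 1, 2 and 5 spanned 7.87 to 11.58, and libraries 3, 4 and 6 lay within that span, at 9.84 to 10.61. Basal markers (5 of 6 higher, 3 of 6 over set means) summed to 11.46 to 11.63 in wild type and 11.90 to 12.44 in null libraries. Null libraries 1, 2 and 5 had 11.90 to 11.93, and null libraries 3, 4 and 6 had 12.39 to 12.44. The wild-type sets overlapped in basal sums. All 7 tested myeloid markers were lower, 1 of them also over set means, with sums of 11.80 to 12.66 and 11.25 to 11.39. Wild-type libraries 1 to 3 had 12.62 to 12.66 and libraries 4 to 6 had 11.80 to 11.88, while the null sets overlapped. Of all tested genes, 28% were higher and 25.1% lower over 12 libraries, and 7.58% and 6.96% over set means. Over 4 libraries per genotype 37.7% were called in either direction. The part of these cell types in the genotype differences was not tested.

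Of 38 further androgen-responsive genes listed from general knowledge, 36 were in the table and 35 were tested. Over 12 libraries 14 rose, 9 fell and 12 were not called, so that 65.7% were called beside 53.1% of all tested genes. Over set means 4 rose and 3 fell, where 7.58% of all tested genes rose and 6.96% fell. Over 4 libraries per genotype 11 rose and 8 fell, where 37.7% of all tested genes were called in either direction. Their median difference was 0.017, close to the 0.012 of all tested genes. The lipase-like gene Abhd2 rose by 2.21 (SE 0.117, adjusted p = 4.44e-09 by limma, and 0.00395 over set means), and Lifr, the receptor for leukemia inhibitory factor, rose by 1.82 (SE 0.094, adjusted p = 1.88e-09, and 0.00354). The androgen receptor coregulator gene Zmiz1 rose by 0.53, and Spdef, an ETS factor of secretory epithelium, fell by 0.50, both also over set means. Tmprss2, a luminal serine protease named after its values were seen, fell by 1.25 and also passed over set means (adjusted p = 0.0195 by limma).

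**Figure D4:**
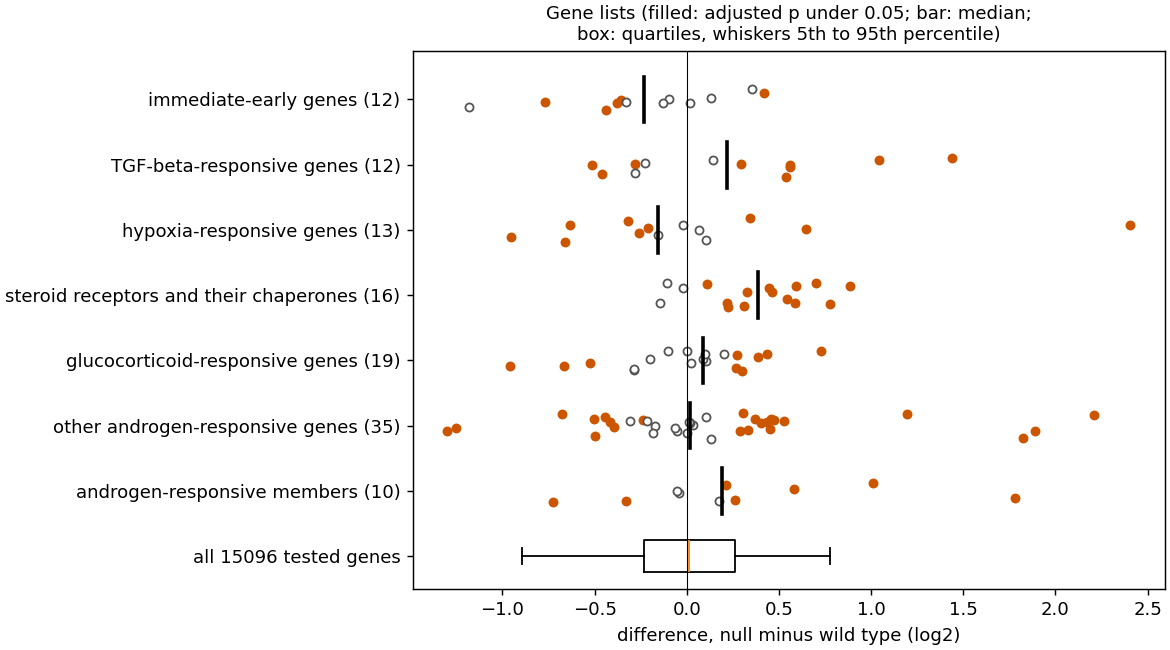
Differences between genotypes in log2 units are plotted for each tested gene of 7 lists, filled where the adjusted p of limma over 12 libraries was under 0.05, with a bar at the list median. The box shows the quartiles of all 15096 tested genes and the whiskers their 5th and 95th percentiles. The androgen-responsive lists spread to both sides of 0, and the receptor and chaperone list has its median at 0.39.

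Of 16 tested genes of steroid receptors, their chaperones and coregulators, 13 rose over 12 libraries by limma, where 28% of all tested genes rose, 0 fell and 3 were not called (Esr2, Hsp90ab1 and Foxa1). Over set means 3 of the 16 rose, where 7.58% of all tested genes did. Their median difference was 0.39. The corepressor gene Ncor1 rose by 0.59, the coactivator gene Ncoa2 by 0.55 and the epithelial factor gene Grhl2 by 0.59, all also over set means. The coactivator gene Ncoa3 rose by 0.31 over 12 libraries (adjusted p = 4.18e-05 by limma, and 0.0734 over set means). Nr3c1, the glucocorticoid receptor gene, named after its values were seen, rose by 0.11 (adjusted p = 0.0417 by limma, and 0.425 over set means). Of 19 tested glucocorticoid-responsive genes, limma called 6 higher and 3 lower, or 47.4%, beside 53.1% of all genes, and 0 passed over set means by limma (5 at an unadjusted p under 0.05). Klf9, a Krüppel-like factor, rose by 0.73, Glul, glutamine synthetase, by 0.39 and Klf15 by 0.30, while the repressor gene Bcl6 fell by 0.67. Their median difference was 0.086. Sgk1 and Zbtb16 thus rose by more than any called member of that list, whose highest difference was 0.73.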

How the data were processed

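Prostate RNA was enriched by poly-A pull-down, made into TruSeq libraries and sequenced on an Illumina HiSeq, per the labels' protocols. Tools named, with no roles, in the submitters' processing notes are TopHat2 2.0.4, Cufflinks 2.0.2, CASAVA 1.8.2 and DESeq, with build mm9. The authors deposited 1 table of log2 values, 1 column per library, that look variance-stabilised. The transformation was not given in the sources used here. No counts were used, so depth is unknown.

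The log2 values were tested unchanged by limma 3.58.1 (R 4.3.3, mean-variance trend, robust moderation, genotype as the only term, Benjamini-Hochberg over all tested genes, threshold 0.05). The filter asked for 4 or more in at least 6 of 12 libraries. The fit was checked on simulated data of 12 independent libraries with 200 genes raised. That check does not cover libraries that share material, or changes in many genes and both directions as called here. The sets of 3 are, for each genotype, the split that puts 1 library of a set closest to an even blend of the other 2. The 10 genes and all lists were chosen with earlier results of these data known. Named are the 10 genes, up to 4 called genes per list in order of adjusted p (if fewer than 2 were called, the 2 with the highest mean), the 2 genes most like each member, and the highest marker of cell type lists where used. All other genes in the text, uncalled relatives included, were named after their values were seen. The targeted gene and some listed genes are not reported here, and the latter were taken out of their lists, counts included. Alternatives were quantile, upper quartile and median scaling, plain limma moderation, exact rank-sum tests, other filters (none, or 5), 16 added on the linear scale, each library or set left out, set means and no mix libraries.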

Additional observations from a re-analysis of the deposited data

How the results depend on the processing

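Sgk1, Zbtb16, Acsl3 and Fkbp5 kept their direction and their call in all 26 alternatives, with differences of 1.61 to 1.88, 0.87 to 1.15, 0.47 to 0.67 and -0.86 to -0.59. Of the 10 genes, 7 were called over 12 libraries, beside 53.1% of all tested genes, and 6 to 7 with a library left out. Over set means 4 were called (14.5% of all genes), and 4 without the library nearest to a mix in each set (37.7%). Without wild-type libraries 4 to 6 it was 4, and 3751 of 15096 genes rose and 3308 fell. It was 5 with quantile scaling (4073 of all genes rose, 4174 fell) and with upper quartile scaling (3367 rose, 4869 fell). Without null libraries 3, 4 and 6 it was 8, and 3900 of all genes rose and 3722 fell. Fits without a set count the 3 libraries left in that genotype as separate, though they may share material. Of the 35 further androgen-responsive genes, 23 were called over 12 libraries, 21 to 24 with a library left out and 7 over set means. With a library left out, 4022 to 4185 of all 15096 genes rose and 3518 to 3754 fell. Over set means 14.5% of all genes were called. With 2 against 2, set means carry less power by construction. The call of Ell2 ended in 19 alternatives, and those of Tsc22d3 and Steap4 in 6 each. The differences with a library left out ran from -0.11 to 0.030 for the uncalled Ndrg1, from -0.12 to 0.041 for Abcc4 and from 0.047 to 0.27 for Pmepa1. For Ndrg1 the sign turned to 0.024 without wild-type library 2, to 0.0094, 0.030 and 0.0030 without null libraries 3, 4 and 6 in turn, to 0.18 without wild-type libraries 1 to 3 and to 0.23 without null libraries 3, 4 and 6 together. For Abcc4 it turned to 0.041 without null library 2 and to 0.15 without null libraries 1, 2 and 5, and for Pmepa1 to -0.20 without those 3. The cause was not tested. No paired analysis was possible because the labels give libraries no replicate number shared between genotypes. Unknown depth leaves the counting error of each value unknown.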

Other observations

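Genes of neighbouring responses moved both ways. Of 12 genes known to answer to TGF-beta or BMP signals, a setting in which Pmepa1 acts, 6 rose and 3 fell by limma over 12 libraries, or 75%, beside 53.1% of all tested genes. Over set means 4 rose, where 7.58% of all tested genes rose. Id1, an inhibitor of differentiation, rose by 1.44 (SE 0.140, adjusted p = 2.09e-06 by limma), Smad6, an inhibitory SMAD, by 1.04, Id2 by 0.56 and the decoy receptor gene Bambi by 0.56. Of 13 tested hypoxia-responsive genes, the class to which Ndrg1 also belongs, 3 rose and 6 fell, or 69.2%, beside 53.1% of all tested genes. Over set means 1 was higher and 2 lower, beside 14.5% of all tested genes. The oxygen-sensor gene Egln3 fell by 0.95, the mitophagy gene Bnip3 by 0.63 and the lactate dehydrogenase gene Ldha by 0.32, while Adm, adrenomedullin, rose by 0.65. Ndrg1 itself differed by -0.040 and was not called.

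Immediate-early genes, which respond within minutes and can follow tissue handling, showed 1 member higher and 4 lower of 12 tested, or 41.7%, beside 53.1% of all tested genes. Fosl2 rose by 0.42, and Nr4a1 fell by 0.44, Junb by 0.38 and Ier3 by 0.36. Over set means 0 passed by limma, with 2 at an unadjusted p under 0.05. Of 3 relatives of Tsc22d3, Tsc22d2 rose by 0.21 and Tsc22d4 by 0.19, and neither passed over set means. Of 3 tested partners of Pmepa1, the ubiquitin ligase gene Nedd4 rose by 0.14 (adjusted p = 0.0235 by limma, but 0.469 over set means and 0.120 over 4 libraries per genotype), and Smad3 stood at -0.081 and was not called.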
